A study of Mus musculus with 6 samples.

Results

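B4 and ID elements are short interspersed elements (SINEs), short retrotransposons that do not encode protein and are copied through RNA made by RNA polymerase III. They were taken as all rows of the authors' deposited table of mouse repeats whose class is SINE/B4 or SINE/ID, and were grouped by their repeat name. The rule gave 104650 of 773731 rows, of which 88957 were of the B4 class (names B4, B4A, ID_B1 and RSINE1) and 15693 of the ID class (names ID, ID2, ID4 and ID4_). A row is 1 repeat locus with the reads of 1 direction, so the 104650 rows stand for 101212 loci, of which 3438 have a row in each direction.

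The RNA came from ID8, an immortalized epithelial line from the ovarian surface of C57BL/6 mice, grown asynchronously and untreated. The groups were Trp53_KO, with the genotype Trp53-/-, and Trp53_WT, with the genotype Trp53+/+, with 3 libraries each. Trp53 encodes the tumour suppressor p53. Total RNA was made into stranded libraries, in which the direction of a read tells the strand of its RNA. The labels do not say whether the libraries of a group came from separate cultures or clones, nor which part of Trp53 was altered. The spread behind each p-value on gene counts may therefore be only technical.

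ID elements descend from alanine tRNA, and in rodents a source gene of theirs is Bc1, which makes the small cytoplasmic BC1 RNA known best from neurons. Elements of the B4 class join an ID-like head to a body related to the B1 element. The head carries an internal promoter of RNA polymerase III, made of an A box and a B box. Most copies in the genome lie inside genes, where their letters are also read as part of the gene's own RNA polymerase II transcript.

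The sequences below were chosen to show what a source gene and dispersed copies of both classes look like. They are Bc1 and, for each name with such a locus, the called locus of lowest FDR in an exon of a gene with no coding transcript, read from GENCODE M21 transcripts (GRCm38, the assembly of mm10). Each is printed 5′ to 3′ along the repeat, and capitals mark matches to GCNNAGTGG (A box letters) or GGTTCGNNC (B box letters), searched on the repeat's strand.
Bc1, chr7:144914470-144914637, plus strand: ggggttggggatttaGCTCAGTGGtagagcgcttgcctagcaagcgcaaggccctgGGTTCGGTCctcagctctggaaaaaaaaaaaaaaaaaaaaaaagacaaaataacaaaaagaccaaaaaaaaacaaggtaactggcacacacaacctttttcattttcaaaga
ID2 in Neat1, chr19:5838285-5838323, plus strand: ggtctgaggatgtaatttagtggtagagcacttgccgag
ID4 in Xist, chrX:103477692-103477768, plus strand: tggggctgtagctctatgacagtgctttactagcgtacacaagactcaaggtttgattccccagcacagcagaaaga
ID4_ in Mir99ahg, chr16:77557537-77557601, plus strand: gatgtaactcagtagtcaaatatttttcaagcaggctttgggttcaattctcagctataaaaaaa
RSINE1 in Gm35853, chr15:101405658-101405791, plus strand: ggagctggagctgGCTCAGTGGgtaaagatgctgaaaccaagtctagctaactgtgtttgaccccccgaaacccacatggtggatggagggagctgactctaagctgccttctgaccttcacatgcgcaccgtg
ID_B1 in Neat1, chr19:5835950-5836039, minus strand: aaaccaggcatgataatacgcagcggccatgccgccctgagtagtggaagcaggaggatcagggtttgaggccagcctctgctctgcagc
B4A in Gm48996, chr15:25636418-25636568, plus strand: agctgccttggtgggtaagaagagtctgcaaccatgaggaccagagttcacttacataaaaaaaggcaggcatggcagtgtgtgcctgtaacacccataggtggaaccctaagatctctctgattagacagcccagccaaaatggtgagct
B4 in Wt1os, chr2:105077774-105078031, plus strand: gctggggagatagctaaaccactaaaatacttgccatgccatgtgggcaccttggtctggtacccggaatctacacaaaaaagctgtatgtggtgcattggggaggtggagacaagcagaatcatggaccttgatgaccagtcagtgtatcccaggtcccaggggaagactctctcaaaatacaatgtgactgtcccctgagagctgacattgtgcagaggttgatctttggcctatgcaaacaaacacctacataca

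Bc1 held both sets of letters, with the A box starting at base 16 and the B box at base 57, and of the printed copies only the RSINE1 locus held the A box. Over the 1479 ID-class loci that lie wholly in an annotated exon (chromosome 18 was not used here), 234 (15.8%) held the A box letters, 9 (0.609%) the B box letters and 1 (0.0676%) both. Other repeats of 60 to 90 bases in exons held them in 1.47% (A box) and 0.111% (B box) of 5384 loci. In the B4 class, 6.66% of 5634 exonic loci held the A box letters and 0.319% the B box letters. The opposite strand was searched too and added A box letters to none of the ID-class loci, so that the share on either strand stayed at 15.8%. In a local alignment with the first 75 bases of Bc1, exonic ID-class loci matched at a median of 41 bases (lowest 2, highest 60). The median was 45.5 over the 20 such loci that were called below. More bases matched on the strand the table gives for the repeat than on the other strand at 1421 of the 1479 loci.

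The first comparison asked whether reads from B4 and ID loci were higher or lower in Trp53_KO. In the authors' deposited table, which gives each row a log2 fold change and an FDR (the adjusted p of that row) and no value per library, 211 B4 and ID rows were higher and 225 were lower in Trp53_KO at an FDR under 0.05. That is 0.202% higher and 0.215% lower of their rows, against 0.388% higher and 0.284% lower of all rows in the table. Both shares lay below those of the whole table. A call here means an FDR under 0.05 in that table, and the depth behind each row is not known.

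B4-class and ID-class rows had like shares. Of B4-class rows, 182 (0.205%) were higher and 196 (0.22%) lower in the authors' deposited table. Of ID-class rows, 29 (0.185%) were higher and 29 (0.185%) lower. The median log2 fold change over all rows was 0.0005 in each class. For comparison, 0.645% of SINE/B2 rows were higher and 0.166% lower, and 0.139% of SINE/Alu rows (B1 elements in mouse) were higher and 0.183% lower. No test of these shares was made, because rows in 1 gene share their transcript.

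Among the 8 names, B4 had the most higher rows in the B4 class by share, 30 of 11049 (0.272%), beside 24 lower (0.217%). B4A had 44 higher and 48 lower of 20136 rows, and ID_B1 had 57 higher and 61 lower of 27962. RSINE1, the name with the most rows, had 51 higher (0.171%) and 63 lower (0.211%) of 29810. In the ID class, ID4 had 12 higher and 14 lower of 6015 rows, and ID4_ had 12 higher and 7 lower of 6818. ID2 had 4 higher and 4 lower of 1351, and ID had 1 higher and 4 lower of 1509. The counts of the last 2 names are too small to rank.

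**Figure D1:**
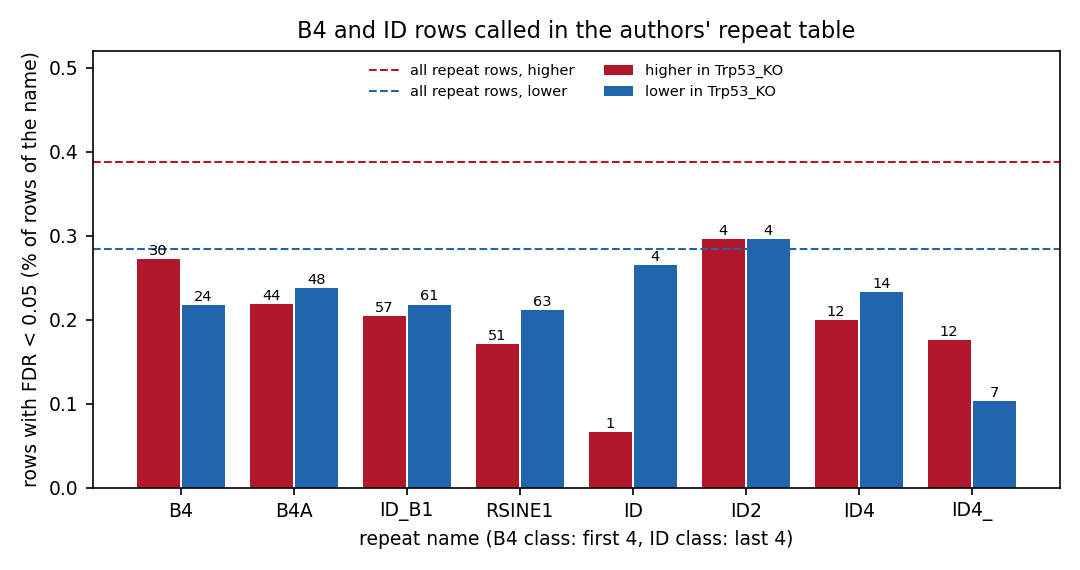
Share of rows with an FDR under 0.05 in the authors' deposited table (y axis, percent of the rows of each name), higher (left bar) and lower (right bar) in Trp53_KO against Trp53_WT, for the 8 repeat names, with the number of rows above each bar. Dashed lines give the shares over all repeat rows, 0.388% higher and 0.284% lower: every higher bar lies under its line, and only ID2, with 4 rows, reaches the lower line.

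The size of the called differences was broad. In the authors' deposited table the median absolute log2 fold change of called B4-class rows was 2.54 for higher and 2.25 for lower rows, and that of ID-class rows was 2.46 and 2.03. The smallest called value was 0.54 and the largest 8.62. Many calls lay close to the threshold: 90 of the 182 higher and 73 of the 196 lower B4-class rows had an FDR of 0.01 or more. Of the 436 called rows, 41 carried exactly the same log2 fold change and FDR as another called row in that table, for example 9 rows at 4.596 with an FDR of 0.0342, and 6 rows at -4.595 with that FDR.

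Reads ran along the repeat in some rows and against it in others. In the B4 class, 92 higher and 113 lower rows were among 41804 rows with reads in the sense of the repeat, and 90 higher and 83 lower among 47153 antisense rows. In the ID class the sense rows held 10 higher and 15 lower of 7270, and the antisense rows 19 higher and 14 lower of 8423. By share, sense B4-class rows were called higher in 0.22% and lower in 0.27%, and antisense ones in 0.191% and 0.176%. For the ID class the shares were 0.138% and 0.206% (sense), and 0.226% and 0.166% (antisense). Called rows were thus found in both orientations in each class. The like shares over all repeat rows are not given here, and where the reads began was not tested.

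Where the called rows lie was the next question. Of the 436, 372 overlapped a gene annotated on the strand of the reads, 108 of them in an exon and 264 in an intron. A further 34 lay only opposite a gene, and 30 lay outside genes. In exons, 0.779% of B4 and ID rows were higher and 0.672% lower, against 1.03% and 0.866% of all repeat rows in exons. In introns the shares were 0.161% and 0.154%, against 0.198% and 0.184% of all rows there. Outside genes, 0.116% of B4 and ID rows were higher and 0.201% lower, against 0.866% and 0.397% of all rows outside genes. These were 11 higher and 19 lower B4 and ID rows. Of B4 and ID rows that lay only opposite a gene, 0.171% were higher and 0.661% lower, against 0.846% and 0.514% of all rows so placed. Lower rows were thus the more frequent ones there among B4 and ID rows, which include the 9 opposite Phactr4 described below.

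Called rows went with the gene around them. Gene counts were tested with edgeR's quasi-likelihood test, in which 1930 of 13651 genes (14.1%) were higher and 2200 (16.1%) lower in Trp53_KO at a Benjamini-Hochberg adjusted p under 0.05. Of the 436 called rows, 361 had a tested gene on the strand of their reads, their host gene. The host was called in the same direction for 325 of them, in the other direction for 2, and was not called for 34. By direction this held for 168 of 190 higher rows and 157 of 171 lower rows. For the other called repeats in the table the same share was 2292 of 2587 (88.6%), a share close to that of B4 and ID rows. The 361 rows lay in 210 host genes, of which 100 were called higher and 81 lower.

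The same was seen from the side of the genes. Of 12417 B4 and ID rows in higher host genes, 168 (1.35%) were called higher and 0 lower in the authors' deposited table, where 1.58% of all repeat rows in higher hosts were higher. Of 14717 rows in lower host genes, 157 (1.07%) were lower and 2 higher, and of all repeat rows in lower hosts 1.23% were lower. Of 59778 rows in host genes that were not called, 20 (0.0335%) were higher and 14 (0.0234%) lower. For all repeat rows in hosts that were not called the shares were 0.0451% and 0.0319%. Where the host was at least 4-fold higher, 81 of 425 rows (19.1%) were called higher, and where it was at least 4-fold lower, 60 of 496 (12.1%) were called lower. Of all repeat rows in such genes, 608 of 3374 were higher and 481 of 3939 (12.2%) lower, shares close to those of B4 and ID rows. The other rows in such genes were not called at this depth.

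The sizes of row and host went together as well. Over the 361 called rows, Pearson's r between the log2 fold change of the row in the authors' deposited table and that of its host gene was 0.86, and Spearman's rho was 0.90. These are descriptions over rows that share libraries and, in part, host genes. Only called rows entered, so rows near 0 were left out, which tends to raise r. Reads in an exonic repeat may also be part of the host gene's own count, so row and gene are not independent there. For the 102 rows in exons r was 0.93 and the median absolute difference was 0.23 on the log2 scale. For the 259 rows in introns r was 0.84 and the median difference 0.80. Whether a read in an exon or intron began at the repeat or at the gene's promoter cannot be told apart in these values.

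**Figure D2:**
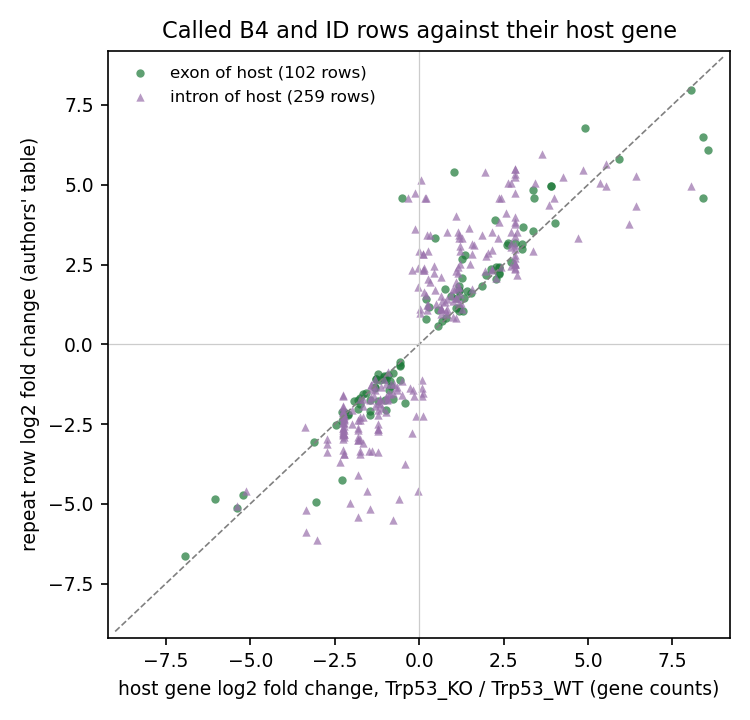
Log2 fold change of each called B4 or ID row in the authors' deposited table (y axis) against that of its host gene from gene counts (x axis), both Trp53_KO over Trp53_WT, for 102 rows in exons (circles) and 259 in introns (triangles), with the line of equal values dashed. Rows in exons follow the line (r = 0.93), and rows in introns scatter more, with r = 0.84.

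A few genes held many of the calls. Called rows lay in 220 genes on the strand of the reads, of which 159 held 1, 37 held 2 and 24 held 3 or more. Those 24 genes held 139 called rows. No gene held called rows of both directions. The 159 genes with 1 called row could not have, so only the 37 and the 24 others bear on this. The like count for all repeat rows is not given here.

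Many of the lower rows lay in neighbouring genes of chromosome 4. Between the start of Ppt1 and 10 kb past the end of Trit1 (chr4:122836242-123064949, 228.7 kb), 44 of 73 B4 and ID rows were called lower in the authors' deposited table, and 72 of 73 were negative, with a median log2 fold change of -2.37. The 44 rows, 37 of the B4 and 7 of the ID class, are most of the 70 lower B4 and ID rows on that chromosome. Of B4 and ID rows, 1.06% were lower on chromosome 4, and 0.748% of all repeat rows there were. The share of all repeat rows called lower within the block itself is not given here, so the 44 of 73 is not shown to be particular to B4 and ID rows.

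Trit1, which encodes a tRNA isopentenyltransferase (chr4:123016597-123054949), held 21 called rows of 25, all lower and all in introns. Its gene level was 22.3, 24.0 and 25.2 CPM (counts scaled to the size of the library) in Trp53_KO, against 114, 118 and 107 CPM in Trp53_WT. The groups stood well apart, with a log2 fold change of -2.25 ± 0.08 (SE) and an edgeR adjusted p of 5.6e-08. The called rows of Trit1 ran from -3.33 to -1.60 in the authors' deposited table, around the value of the gene. One of them, an ID4 locus in an intron (chr4:123047864-123047935), had a log2 fold change of -2.63 and an FDR of 3.2e-15. Another 4 called B4-class rows lay just past the end of Trit1 on its strand, between 57 and 1232 bases downstream.

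Cap1, which encodes an actin-binding protein of the cyclase-associated family (chr4:122859047-122886056), held 13 called rows of 14, all lower. Its level was 199, 190 and 194 CPM in Trp53_KO, against 888, 889 and 936 CPM in Trp53_WT. These are the highest levels of the 4 genes of the block named here, and the log2 fold change was -2.22 ± 0.06 (SE, edgeR adjusted p = 1.2e-08). An ID4 locus in a Cap1 intron (chr4:122870054-122870122) had -2.80 in the authors' deposited table (FDR 3.7e-11), and a B4 locus (chr4:122871565-122871825) had -2.58 (FDR 8.2e-19). Ppt1, a lysosomal thioesterase gene, and Mfsd2a, a lipid transporter gene, held 3 lower rows each. They fell by 2.73 and 1.74 on the log2 scale (edgeR adjusted p = 9.9e-09 and 1.7e-06). Without this block, 159 B4-class and 22 ID-class rows were lower.

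Among genes with higher rows, Adamts9, a secreted metalloprotease gene, held 13 higher rows of 35. Its level was 196, 179 and 198 CPM in Trp53_KO, against 30.9, 24.2 and 24.6 CPM in Trp53_WT. The groups did not overlap, and the log2 fold change was 2.85 ± 0.10 (SE, edgeR adjusted p = 5.7e-08). All 13 called rows were intronic, and they ran from 2.40 to 5.49 in the authors' deposited table.

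Upk3b, a uroplakin gene used as a mesothelial marker, held 7 B4-class rows and all 7 were called higher. Its level was 548, 473 and 572 CPM in Trp53_KO, against 73.0, 69.0 and 79.0 CPM in Trp53_WT (log2 fold change 2.85 ± 0.09, SE; edgeR adjusted p = 2.7e-08). An RSINE1 locus in its last exon (chr5:136045804-136045886) had a log2 fold change of 3.18 and an FDR of 1.6e-23 in the authors' deposited table. Tfcp2l1, a transcription factor gene, held 6 higher rows, among them an ID2 locus at 2.24 and an ID4 locus at 2.20 in its 3′ exon. The gene itself had a log2 fold change of 2.38 ± 0.10 (SE, edgeR adjusted p = 1.8e-07). Gata4, a transcription factor gene of gonad and heart, held 4 and had 2.16 ± 0.08 (SE, edgeR adjusted p = 5.6e-08). Mir99ahg, a noncoding host of microRNAs, held 6 higher rows, including the ID4_ locus printed above, and had 2.73 ± 0.11 (SE, edgeR adjusted p = 9.3e-08).

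Other lower groups were in Myo10, a filopodial myosin gene, with 8 lower rows of 50, Orai2, a calcium channel gene, with 5 of 19, and Ank, a pyrophosphate transport gene, with 4 of 30. Their log2 fold changes were -1.23 for Myo10, -1.82 for Orai2 and -1.82 for Ank, with edgeR adjusted p-values of 2.4e-05, 1.1e-07 and 9.5e-08. The 8 rows of Myo10 include the B4A locus printed above in Gm48996, which is counted here as intronic in Myo10. Myo10 was at 157, 157 and 179 CPM in Trp53_KO, against 453, 359 and 341 CPM in Trp53_WT. Rdh10, a retinol dehydrogenase gene, held 4 lower rows of 6 and fell by 1.30. In Frmd4b, where 5 of 113 rows were called, 71 of the 113 had the sign of the gene. Its gene change was smaller, 0.64 ± 0.10 (SE, edgeR adjusted p = 0.0011). Frmd4b was at 439, 460 and 467 CPM in Trp53_KO, against 346, 263 and 270 CPM in Trp53_WT.

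**Figure D3:**
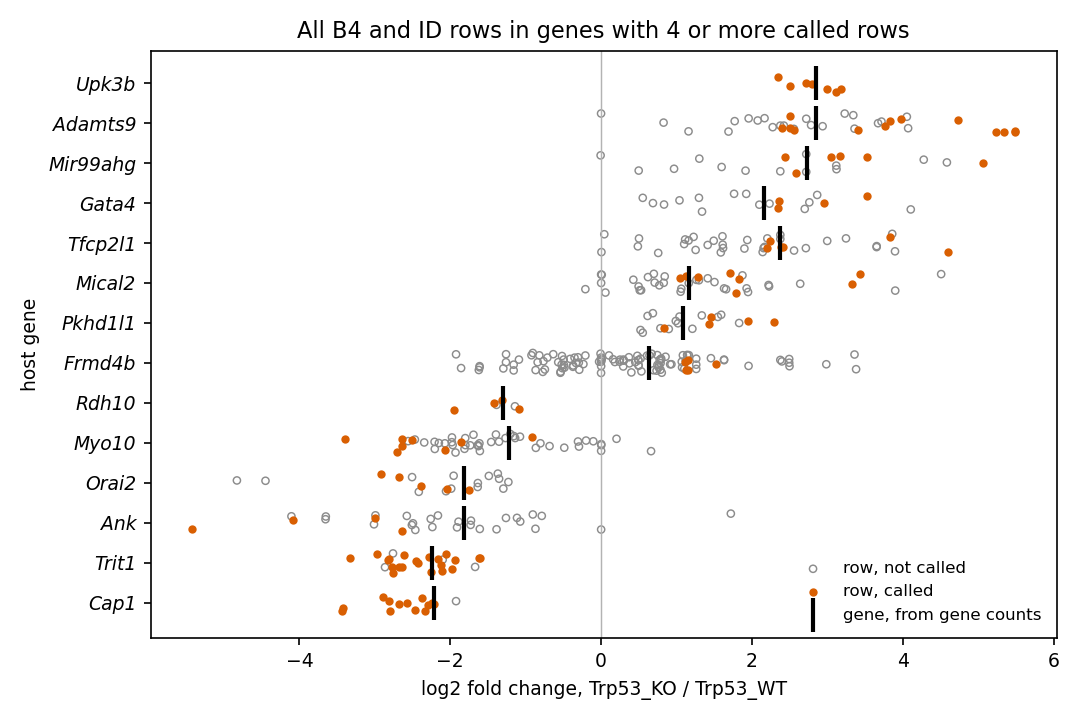
Log2 fold change (x axis, Trp53_KO over Trp53_WT) of every B4 and ID row in the 14 genes that held 4 or more called rows, in the authors' deposited table, with called rows filled and others open, and the gene's own value from gene counts as a black bar. In Trit1 all 25 rows are negative and in Upk3b all 7 are positive, while the rows of Frmd4b fall on both sides of 0.

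The ID4 locus in the last exon of Trp53inp1 (chr4:11172479-11172554), a p53-inducible gene, was among the ID-class lower rows of lowest FDR, with -1.89 in the authors' deposited table (FDR 8.7e-09). Trp53inp1 itself was at 17.6, 19.9 and 20.9 CPM in Trp53_KO, against 63.2, 65.6 and 68.6 CPM in Trp53_WT (log2 fold change -1.76 ± 0.09, SE; edgeR adjusted p = 4.7e-07). The groups did not overlap. Trp53 itself was at 29.6, 25.5 and 25.3 CPM in Trp53_KO, against 110, 97.3 and 105 CPM in Trp53_WT.

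The highest positive values were at exonic loci of genes with few counts in Trp53_WT. The ID4_ locus in the last exon of Lrrn4, a mesothelial membrane protein gene (chr2:132869655-132869728), had a log2 fold change of 7.96 and an FDR of 3.6e-51 in the authors' deposited table. Lrrn4 had 1282, 1074 and 1249 counts in Trp53_KO, against 2, 5 and 6 counts in Trp53_WT. The ID_B1 locus at chr9:50739985-50740127 had 8.62 (FDR 3.4e-39) in the authors' deposited table, in an exon of RP24-106M14.2. That gene had 201, 208 and 197 counts in Trp53_KO, against 1, 3 and 2 counts in Trp53_WT. With so few reads in Trp53_WT the size of both differences is uncertain. A smaller difference, in a gene with more counts in Trp53_WT, was that of the ID4 locus in the last exon of Fzd6, a Wnt receptor gene (chr15:39036637-39036715). That locus had 3.11 in the authors' deposited table (FDR 9.1e-27), and the reads behind its row are not known. Fzd6 was at 99.6, 92.2 and 86.9 CPM in Trp53_KO, against 15.2, 15.4 and 15.3 CPM in Trp53_WT.

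A second kind of locus did not follow its gene. Only 5 loci were called in both read directions, 3 in Phactr4 and 2 in Necap2, both on chromosome 4, and all 10 rows were lower. In Phactr4, an actin and phosphatase regulator gene on the minus strand (chr4:132355923-132422489), all 9 B4 and ID rows with reads opposite to the gene were lower in the authors' deposited table, from -8.55 to -3.23. So were 32 of the 36 repeat rows of any class with reads on that strand. The called rows lay between 20.46 and 30.41 kb from the start of the gene. Reads on the gene's own strand were called lower in 3 of 45 B4 and ID rows, with values from -1.61 to -1.13, and these were the only called ones among the 210 repeat rows of any class on that strand. Their 3 loci, called on the opposite strand too, were an RSINE1 at chr4:132393450-132393574, an RSINE1 at chr4:132394649-132394799 and an ID_B1 at chr4:132396375-132396504. Between 25.43 and 30.41 kb most uncalled repeat rows on the gene's own strand were negative too. The median over all uncalled rows on the gene's own strand was 0.137.

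Phactr4 itself was at 88.2, 85.1 and 85.4 CPM in Trp53_KO, against 113, 68.0 and 64.6 CPM in Trp53_WT. The groups overlapped because Trp53_WT replicate 1 lay far above the others. The log2 fold change was 0.08 ± 0.18 (SE, edgeR adjusted p = 0.77). Without Trp53_WT replicate 1 it was 0.38, with an edgeR adjusted p of 2.6e-04, so 1 library decides this call. In neither fit was the gene lower in the way the opposite-strand rows were.

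In Necap2, an endocytosis gene on the minus strand (chr4:141066512-141078357), 3 of 4 B4 and ID rows opposite to the gene were lower in the authors' deposited table, from -6.26 to -4.73. On the gene's strand 2 of 5 were lower, a B4A at -2.26 (chr4:141077061-141077336, FDR 2.9e-16) and an RSINE1 at -1.53 (chr4:141075561-141075640). Of all repeat rows, 7 of 8 opposite to the gene and 7 of 16 on its strand were lower, all within 3.05 kb of the gene's start. Necap2 was at 44.5, 39.9 and 43.3 CPM in Trp53_KO, against 36.0, 39.0 and 42.0 CPM in Trp53_WT. The groups overlapped, with a log2 fold change of 0.13 ± 0.09 (SE, edgeR adjusted p = 0.31). With reads opposite to these genes, B4 and ID rows were thus lower together with other repeats of a short stretch, while the gene counts were not lower.

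**Figure D4:**
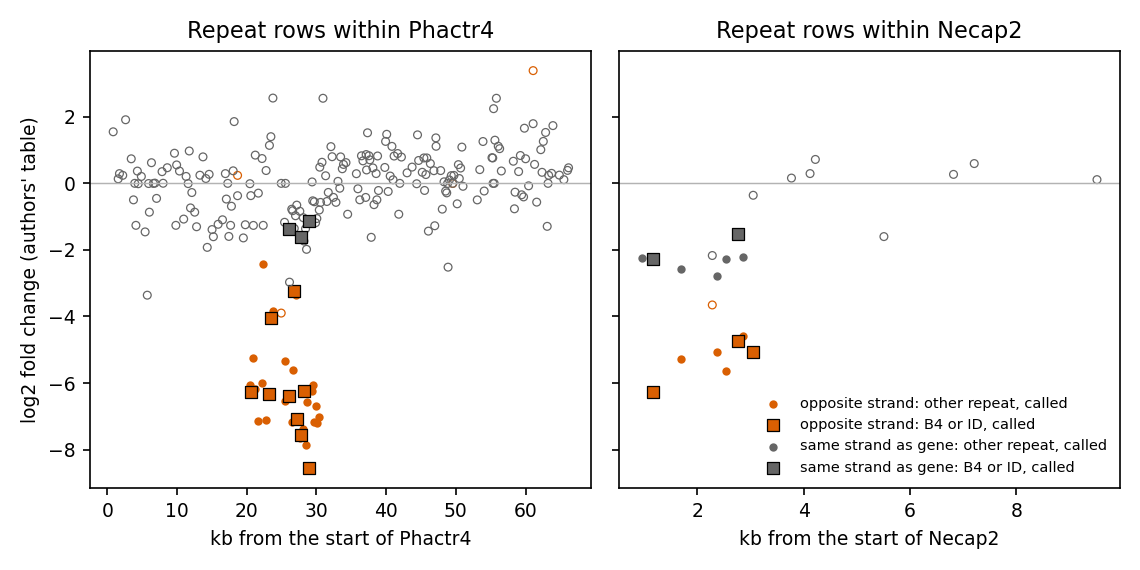
Log2 fold change in the authors' deposited table (y axis, Trp53_KO over Trp53_WT) of all repeat rows within Phactr4 (left) and Necap2 (right) against the distance from the start of the gene in kb (x axis). Orange marks reads opposite to the gene and grey reads on its strand, squares are called B4 or ID rows, filled circles other called repeats and open circles rows not called. The opposite-strand rows that are lower cluster between 20.46 and 30.41 kb in Phactr4 and within 3.05 kb in Necap2.

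Among rows whose host gene was not called, or was called the other way, values ranged widely and many FDRs were close to the threshold. The lowest FDR among them was that of the B4A locus in Necap2 described above. The highest ID row of this kind was an ID locus in an intron of Pnpla6, at 5.16 with an FDR of 0.0018 in the authors' deposited table, where the gene had 0.06 by edgeR (adjusted p = 0.69). The 2 rows that went against a called host were an ID4_ locus in Eogt and a B4A locus in Mboat1. Both were at 4.60 in the authors' deposited table, while edgeR gave -0.33 for Eogt and -0.51 for Mboat1. Their FDRs were 0.0342 and 0.0352, and the Eogt row belongs to the 9 rows above that share 4.596 and 0.0342. Neat1, a nuclear noncoding RNA, held 3 lower exonic rows, the ID2 and ID_B1 loci printed above and an RSINE1 locus, at -0.67 to -0.54. Neat1 was at 1800, 2220 and 3120 CPM in Trp53_KO, against 4470, 3100 and 3090 CPM in Trp53_WT, and was not called (log2 fold change -0.58 ± 0.20, SE; edgeR adjusted p = 0.057). Its groups overlapped. Its call changed with the library left out: the adjusted p was 0.013 without Trp53_KO replicate 3, 0.045 without Trp53_WT replicate 1, 0.041 without Trp53_WT replicate 2 and 0.045 without Trp53_WT replicate 3. Over all 12 alternative fits, by edgeR or DESeq2, its adjusted p ran from 1.21e-06 to 0.178.

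Of the 64 called rows with no gene on the strand of their reads, 23 lay within 10 kb past the end of a tested gene on that strand. For 21 of these the gene was called in the same direction, where 14.1% of all tested genes were higher and 16.1% lower. The like share for other called repeats past a gene is not given here. An ID2 locus 74 bases past Ptgs2, which encodes an inducible cyclooxygenase, had -2.79 in the authors' deposited table (chr1:150108301-150108378, FDR 1.8e-05). Ptgs2 was at 254, 273 and 175 CPM in Trp53_KO, against 939, 1000 and 856 CPM in Trp53_WT. An ID4 locus 582 bases past Tprg had -2.17 (chr16:25422926-25423006, FDR 5.1e-09 in the authors' deposited table), and Tprg had -1.99 ± 0.13 (SE, edgeR adjusted p = 2.9e-06). An ID4_ locus 726 bases past Alad, a haem synthesis gene, had 1.17 in the authors' deposited table, and Alad had 0.95 ± 0.10 (SE, edgeR adjusted p = 7.0e-05). An ID2 locus 1694 bases past Nucb2 was an exception, at 4.60 with an FDR of 0.034 in the authors' deposited table, where edgeR gave Nucb2 a log2 fold change of -0.05 (adjusted p = 0.76). It too belongs to the 9 rows that share 4.596 and an FDR of 0.0342.

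A source gene of ID elements, Bc1, was higher in Trp53_KO. Bc1 had 72, 58 and 62 counts in Trp53_KO, against 13, 14 and 11 counts in Trp53_WT. As CPM this was 3.67, 3.50 and 3.30 in Trp53_KO, against 0.878, 0.692 and 0.590 in Trp53_WT, so every Trp53_KO library lay above every Trp53_WT library. The log2 fold change was 2.29 ± 0.20 (SE, edgeR adjusted p = 2.2e-05), and over the 12 alternative fits it ran from 2.17 to 2.43. The table's own row for the repeat at Bc1, named BC1_Mm and not of the ID class, had 2.33 with an FDR of 3.6e-15 in the authors' deposited table. Oraov1, the next gene on the strand of Bc1, chosen after its values were seen, was at 16.7, 18.4 and 19.6 CPM in Trp53_KO, against 17.2, 20.1 and 19.8 CPM in Trp53_WT. Its groups overlapped (edgeR adjusted p = 0.67).

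The level of Bc1 was low in both groups, and its count is uncertain, since how the authors placed reads that match both Bc1 and other loci is not known. Of the 1382 BC1_Mm rows, the authors' deposited table had 5 (0.362%) higher and 4 (0.289%) lower. Both shares are near those of all rows, 0.388% higher and 0.284% lower. Besides Bc1 itself the called BC1_Mm rows lay in genes such as Akap5 and Col3a1 (higher) and in the Phactr4 and Ppt1 regions described above (lower).

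**Figure D5:**
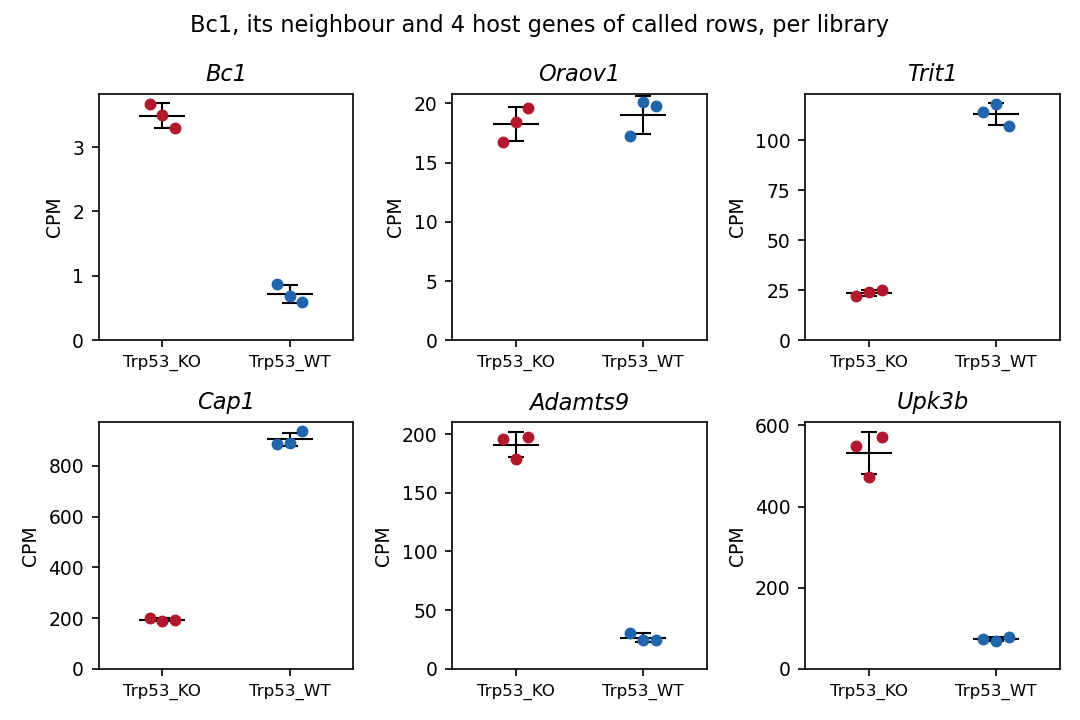
CPM per library (y axis, each panel from 0 on its own scale) of Bc1, its neighbour Oraov1, and 4 genes with many called B4 and ID rows, with Trp53_KO left of Trp53_WT and the mean ± SD of 3 libraries in black. Bc1 lies between 3.30 and 3.67 in Trp53_KO and between 0.590 and 0.878 in Trp53_WT, and only Oraov1 shows overlapping groups.

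Genes for proteins that make, silence or bind SINE RNA differed by small amounts where they were called. Of 25 genes for RNA polymerase III and its factors, 3 were higher and 1 lower by edgeR, with a median log2 fold change of 0.10, against -0.02 over all genes tested, of which 14.1% were higher and 16.1% lower. The higher count is near that background. Among the calls were Polr3f and Crcp, which encode subunits and were higher, and Gtf3a, which was lower and encodes the factor TFIIIA of 5S RNA genes. The call of Crcp, at an edgeR adjusted p of 0.041, was lost with DESeq2 (adjusted p = 0.073) and without a filter on low counts (0.065), and on leaving out any single library other than Trp53_WT replicate 1. Polr3f averaged 62.1 ± 3.10 CPM in Trp53_KO and 49.6 ± 2.21 CPM in Trp53_WT (SD, n = 3 each), and the groups did not overlap (log2 fold change 0.32 ± 0.075, SE; edgeR adjusted p = 0.0098). Gtf3a was at 59.4, 55.6 and 61.1 CPM in Trp53_KO, against 76.1, 78.2 and 87.3 CPM in Trp53_WT (-0.46 ± 0.08, SE; edgeR adjusted p = 0.0019). These differences are far smaller on the log2 scale than that of Bc1.

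Of 19 genes that silence SINEs in chromatin, 7 were higher and 2 lower by edgeR, with a median of 0.12, beside 14.1% higher and 16.1% lower of all genes tested. The higher ones were the DNA methyltransferase genes Dnmt1, Dnmt3a and Dnmt3b, the corepressor genes Trim28, Cbx1 and Kdm1a, and the histone chaperone gene Daxx. The lower ones were Suv39h1, a histone H3 lysine 9 methyltransferase gene, and Atrx, the partner of Daxx. Dnmt3a was at 69.4, 73.8 and 75.5 CPM in Trp53_KO, against 59.2, 50.4 and 50.3 CPM in Trp53_WT (0.45 ± 0.09, SE; edgeR adjusted p = 0.0031). Suv39h1 was at 75.1, 79.3 and 71.3 CPM in Trp53_KO, against 96.3, 99.8 and 108 CPM in Trp53_WT (-0.43 ± 0.08, SE; edgeR adjusted p = 0.0019). Without Trp53_WT replicate 2 the count of higher genes was 4. The count of lower genes was 1 without each of Trp53_KO replicates 1 and 3 and Trp53_WT replicates 2 and 3.

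Of 12 genes for proteins that bind SINE or BC1 RNA, 2 were higher (Hnrnpc and Eif4a1) and 2 lower (Fmr1 and Adar), with a median of 0.12. Both counts are near the background of 14.1% higher and 16.1% lower over all genes tested. Fmr1, an RNA-binding regulator of translation, was at 172, 205 and 180 CPM in Trp53_KO, against 244, 252 and 248 CPM in Trp53_WT (-0.42 ± 0.07, SE; edgeR adjusted p = 0.0021). The calls of Adar and Eif4a1 were just past the threshold, with edgeR adjusted p-values of 0.0499 and 0.0445. The count of higher genes was 0 without Trp53_KO replicate 2 and 1 without each of Trp53_KO replicates 1 and 3 and Trp53_WT replicate 2. The count of lower genes was 1 without any single library other than Trp53_WT replicate 1.

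Total gene counts per library ran from 16597529 to 19574772 in Trp53_KO and from 15319956 to 19954170 in Trp53_WT, and Trp53_WT replicate 1 stood apart from the other Trp53_WT libraries. Its chi-square per degree of freedom was 27.5 against replicate 2 and 26.9 against replicate 3, where replicates 2 and 3 gave 2.01. Of 9 markers of ovarian surface epithelium, 5 were higher and 3 lower by edgeR, and their summed level was 3360 to 3690 CPM in Trp53_KO and 3170 to 3390 CPM in Trp53_WT. Of 4 fibroblast genes, 4 were higher, with a summed level of 934 to 1120 CPM in Trp53_KO and 232 to 280 CPM in Trp53_WT. Their part in the results above was not tested. Of 5 immune genes, Cd68 alone had enough counts to be tested and was not called (edgeR adjusted p = 0.12), Cd3e had no count in any library, and the sum was 4.10 to 4.34 CPM in Trp53_KO and 4.83 to 5.36 CPM in Trp53_WT. Of 4 endothelial genes Cdh5 and Kdr had no count in any library, Pecam1 was higher, and the sum was 1.66 to 2.35 CPM in Trp53_KO and 0.15 to 0.196 CPM in Trp53_WT. In bulk RNA, fewer cells with a transcript and less of it per cell cannot be told apart.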

How the data were processed

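For the 6 libraries the authors deposited raw counts for each gene symbol. For repeats they deposited 2 tables with a log2 fold change and an FDR (adjusted p-value) per locus and read direction for Trp53_KO over Trp53_WT, with no value per library. The submitters' processing notes name mm10, STAR, featureCounts and edgeR. How reads with several matches were placed is not given in the sources used here. Whether values are on base 2 was checked on 677 called exonic rows with a called host gene, where the ratio of the row to its gene had a median of 1.03 (quartiles 0.93 and 1.19). The direction in each row's name was read as that of the reads, since it matched the gene's strand for 88.0% of 38905 exonic rows, against 53.4% for the repeat's strand. The authors' second table, of higher repeats, held 201 B4 and ID rows, the rows with an FDR under 0.05 and a log2 value above 1, and added nothing.

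Gene counts were analysed with edgeR 4.0.16 in R 4.3.3 (filterByExpr, TMM, quasi-likelihood test, genotype as the only term, Benjamini-Hochberg adjustment, threshold 0.05). SEs were derived from the F statistic and are approximate. No replicate pair agreed within sampling noise (chi-square per degree of freedom 2.01 to 27.5). Equal replicate numbers did not deviate together (correlations -0.0532, 0.077 and -0.122), so no pairing was assumed. A host gene is a GENCODE M21 gene on the strand of the reads that overlaps the repeat, taken as the authors' annotated gene where it fits, then by most overlap. It was tested for 86912 of 91102 rows with such a gene.

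The named loci were those of lowest FDR per class and direction (5, and 3 outside genes) and those called in both directions, and the named genes their hosts, genes with 3 or more called rows, Bc1, Trp53 and up to 4 members of each gene list. Not every one is printed, 1 gene that was called is not reported here, and exceptions are marked. Members and lists were chosen with earlier results of these data known. Sequences could be read only from exons of noncoding genes, although the rule had asked for loci outside exons. Alternatives were other FDR and fold thresholds, host rules, scaling, filters, the replicate block, DESeq2 1.42.0 and each library left out.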

Additional observations from a re-analysis of the deposited data

How the results depend on the processing

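At an FDR under 0.01 the counts were 92 higher and 123 lower B4-class rows and 16 higher and 16 lower ID-class rows, and at 0.1 they were 300 higher and 280 lower (B4 class) and 49 higher and 42 lower (ID class), so that higher rows outnumbered lower ones at 0.1 but not at 0.05. Outside annotated genes on both strands 9 higher and 17 lower B4-class rows and 2 higher and 2 lower ID-class rows were left. Leaving out the block from Ppt1 to Trit1, chosen after seeing the data, left 285 rows with a host called the same way. Other rules for the host gave 322 to 325, and leaving out single libraries, also chosen after seeing the data, gave 315 to 334, with host genes at 93 to 107 higher and 77 to 83 lower.

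With the replicate block, 97 host genes were higher and 80 lower, and 1 SINE RNA binding gene was higher. No pairing was supported by the labels or the check. With upper-quartile scaling 1 SINE RNA binding gene was higher, and with RLE scaling, no filter or DESeq2, 1 was lower. Leaving out single libraries gave 0 to 2 higher and 1 to 2 lower genes in that list, 4 to 7 and 1 to 2 in the silencing list, and 2 to 4 higher in the RNA polymerase III list. The cause was not tested. The calls of Crcp, Adar and Eif4a1 were lost under most library omissions, that of Crcp also with the replicate block (adjusted p = 0.064), DESeq2 and no filter, that of Adar with RLE scaling, DESeq2 and no filter, that of Eif4a1 with upper-quartile scaling and the replicate block, those of Cbx1 (adjusted p = 0.056) and Hnrnpc (0.061) without Trp53_KO replicate 2. Over the named genes and alternatives, 575 values kept direction and side of the threshold, 26 were no longer past it, 7 came past it and 4 changed sign. The sign changes, none of them called, were Nucb2 at 0.024 without Trp53_WT replicate 2 (range over left-out libraries -0.092 to 0.024), Oraov1 at 0.008 without Trp53_KO replicate 1 (-0.131 to 0.008), and Phactr4 at -0.024 and -0.05 without Trp53_WT replicate 2 or 3 (-0.05 to 0.378). Repeat rows could not be recomputed per library, so depth limits them by an unknown amount.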
